A study of Moxostoma hubbsi with 18 samples.

Results

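The protein components of the spliceosome were examined in larvae of an endangered sucker fish of fresh waters, the copper redhorse or Moxostoma hubbsi. Members were all rows of the deposited counts whose KEGG-style identifier lies between K12811 and K12900, the range taken to hold spliceosome components. Of the 90 identifiers in that range, 86 were listed, among 9025 features in the sample files. The series table lists 620 further rows, and 0 of them are members. The identifiers K12814, K12851, K12853 and K12889 were not listed in the files used here and were not analysed. All 86 members were counted in all 18 libraries and all passed the low-count filter.

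Larvae were 14 days post fertilization, and each library was made from RNA of 5 whole larvae pooled. The laboratory water group, which is the control, held 9 libraries, and the river water group held 9 libraries. The series title describes the river water as contaminated. No strain, family or tank was given, so the p-values speak of the spread among pools, part of which may be technical.

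The spliceosome is the large RNA and protein machine that removes introns from nuclear pre-mRNA and joins the exons. It is built anew on each intron from small nuclear ribonucleoproteins and many further proteins, among them RNA helicases that drive its rearrangements and factors that bind the splice sites or exonic sequence. Its proteins are needed in every cell type, so a whole-larva sample sums their RNA over all tissues. The files pair no identifier with a gene name, and no reference table was used, so the role of each member is not stated. An identifier of this kind may add together several gene copies. In pooled whole larvae, a smaller number of cells that hold an RNA and less of that RNA per cell cannot be told apart.

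Libraries held between 14868181 and 20584727 counts, and a member had between 113 and 9888 counts in a library. River water replicate 1 had the lowest total and stood apart from the other libraries, with 56.0% of all 9008 tested features over 1.2-fold away from the other river libraries. That share was 7.36% to 28.97% among the 17 remaining libraries, highest in river water replicate 6. Values without river water replicate 1 are therefore given beside the main results it moves.

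The comparison asked whether RNA for the splicing machinery differed between larvae raised in river water and in laboratory water. Of the 86 members, 1 rose in river water and 0 fell, with Benjamini-Hochberg adjusted p under 0.05 over all 9008 features (quasi-likelihood test of edgeR). That made 1.16% of the members, where 6.27% of all tested features were called, 2.13% higher and 4.14% lower. Among the 6391 features whose mean level lay in the range of the members, 6.9% were called. These features tend to lie lower within that range, so they are not matched to the members in level. At an unadjusted p under 0.05, 10 members were found, 3 higher and 7 lower, or 11.6% where the value over all features was 23.7% (11.3% higher and 12.3% lower). DESeq2 called 2 members, 1 higher and 1 lower, beside 9.96% of all features, and limma-voom called 1, higher, beside 6.42%.

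The changes of the members were small. Their log2 changes, river over laboratory water, lay between -0.14 and 0.23, with a median of -0.0074. Over all tested features the median was 0.0090 and the range was -1.25 to 2.55. The median size of the log2 change, whatever its sign, was 0.046 among the members and 0.086 over all features. It was 0.076 among features in the members' range of mean level. Without river water replicate 1 it was 0.039 among the members and 0.074 over all features. The sign was negative for 49 members and positive for 37, so 43.0% were higher, against 53.0% of all features. Other scalings gave the same split of 37 and 49. Without river water replicate 1 the split was 29 higher and 57 lower, with a median log2 change of -0.023, and the median over all features was 0.011. The split also turned with a library left out, to 46 higher and 40 lower without laboratory water replicate 6 and to 44 higher and 42 lower without river water replicate 3.

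The precision of these estimates sets a bound on larger changes only if the 9 libraries of a group are independent. The labels do not state whether libraries share a tank or batch. If they do, the standard errors and intervals below may be too small. The median standard error of the log2 change was 0.044 among the members and 0.070 over all features. Among features in the members' range of mean level, which are counted less deeply than the members, it was 0.060. Without river water replicate 1 it was 0.039 among the members and 0.058 over all features. The 95% interval of the change lay within 1.5-fold in either direction for 86 of 86 members, and for 93.2% of all features. It lay within 1.2-fold for 83 members, and for 56.3% of all features. Of features in the members' range of mean level, 96.8% had intervals within 1.5-fold and 67.7% within 1.2-fold. The 3 members whose interval reached beyond 1.2-fold were K12823, K12895 and K12842, each on the side of higher levels in river water. Each interval stands alone and is not adjusted for the number of members. It included 0 for 76 of the 86. Without river water replicate 1 the changes lay between -0.14 and 0.16, and the interval stayed within 1.2-fold for 85 members and 67.3% of all features, with K12895 the exception among the members.

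**Figure D1:**
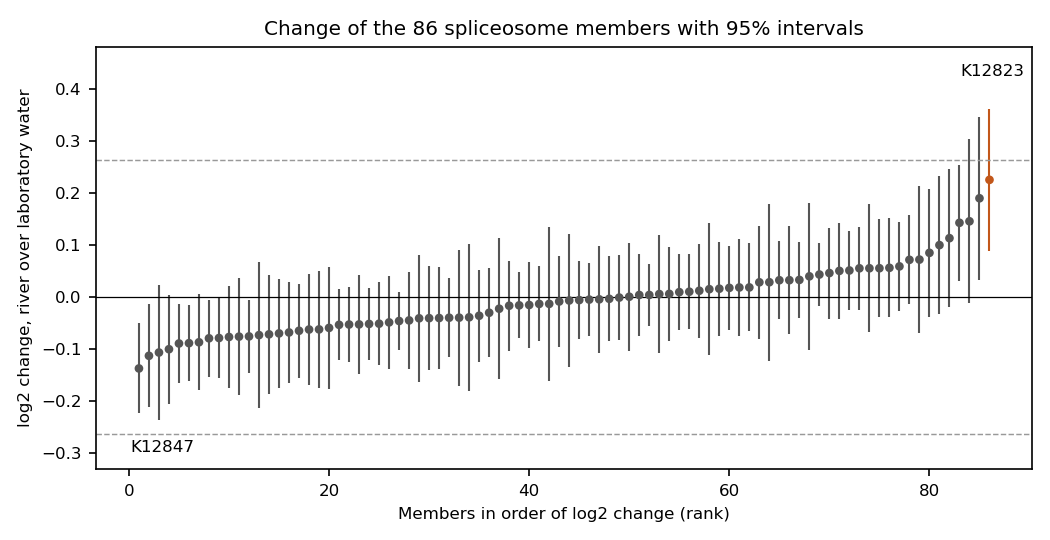
Change of each of the 86 spliceosome members, ordered from lowest to highest, as the log2 ratio of river over laboratory water (9 libraries each). Points are edgeR estimates, lines are 95% intervals, dashed lines mark 1.2-fold, and the member that passed the test, K12823, is in orange with a log2 change of 0.23.

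The member that rose, K12823, was also the most heavily counted of the 86. In laboratory water its level ran from 424 to 487 CPM with a median of 461, where CPM is a count relative to the library total after TMM scaling, the trimmed mean method of edgeR. In river water it ran from 475 to 736 CPM with a median of 510. The groups overlapped through river water replicate 4 alone, and the other 8 river water libraries lay above every laboratory water library. The highest value, 736 CPM, belonged to river water replicate 1, and the next was 541 CPM in river water replicate 8.

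K12823 averaged 457 ± 21.7 CPM in the laboratory group and 534 ± 78.1 CPM in the river group (SD, n = 9 per group). The rise was 0.23 ± 0.07 (SE) on the log2 scale, or 1.17-fold with a 95% interval of 1.06 to 1.28 (adjusted p = 0.0449, edgeR). With river water replicate 1 left out, the river group averaged 509 ± 20.4 CPM (SD, n = 8) and the rise was 0.16 (adjusted p = 0.00564, edgeR). The estimate was smaller without that library, and so was its adjusted p.

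The adjusted p of K12823 lay close to the threshold. The call was lost when any 1 laboratory water library was left out, or river water replicate 3, 6, 8 or 9, with adjusted p between 0.0502 and 0.0809 (edgeR). It was also lost with the replicate number as a block (adjusted p = 0.0639, edgeR), and with upper-quartile scaling (adjusted p = 0.0576, edgeR). Each file name holds a number (1, 2 or 3) and a letter (A, B or C), both of unstated meaning. Within numbers 1, 2 and 3 the log2 change of K12823 was 0.41, 0.10 and 0.16, none past the threshold with 3 libraries a group. River water replicate 1 belongs to number 1.

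K12847 came next to the threshold, with lower levels in river water. In laboratory water its level ran from 24.3 to 29.1 CPM with a median of 26, and in river water from 23.2 to 25.6 CPM with a median of 24.1. The ranges overlapped, yet 9 of 9 river water libraries lay below the laboratory mean. K12847 averaged 26.6 ± 1.77 CPM in the laboratory group and 24.1 ± 0.821 CPM in the river group (SD, n = 9 per group). The log2 change of -0.14 ± 0.04 (SE) did not pass (adjusted p = 0.0517, edgeR).

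Without river water replicate 1, K12847 passed with a log2 change of -0.14 (adjusted p = 0.0332, edgeR). That fit called 2 members, K12823 higher and K12847 lower, and 10.9% of all features. K12847 also passed without laboratory water replicate 4 (adjusted p = 0.0396, edgeR). Of the 16 settings other than 1 library left out, 13 did not take it past the threshold. It passed in the rest: DESeq2 (adjusted p = 0.0324), limma-voom with quality weights (adjusted p = 0.0451), and edgeR without river water replicates 1 and 6 (adjusted p = 0.0464). It did not pass with any of the other 16 libraries left out, with adjusted p up to 0.102 (edgeR, without laboratory water replicate 6). Nor did it pass with the replicate number as a block (adjusted p = 0.145, edgeR), with counts summed by file number (0.180), with the file number as a block (0.0644) or with upper-quartile scaling (0.0717). Within file numbers 1, 2 and 3 its log2 change was -0.04, -0.14 and -0.23, none past the threshold with 3 libraries a group (adjusted p = 0.846, 0.531 and 0.0777, edgeR). The levels of the 2 waters overlapped within numbers 1 and 2 and did not overlap within number 3, where laboratory water replicates 7 to 9 held 26.5, 28.4 and 28.8 CPM, and river water replicates 7 to 9 held 23.8, 24.1 and 23.3 CPM. With 3 libraries a group, levels can separate by chance, and the share of all features that did so was not counted.

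The next 3 members by unadjusted p did not pass either. K12885 had 37.5 to 47.3 CPM in laboratory water, with a median of 43.2, and 43.3 to 55.8 CPM in river water, with a median of 46.3. The log2 change was 0.14 ± 0.05 (SE; adjusted p = 0.113, edgeR). Its highest library was river water replicate 1, and without it the log2 change was 0.12 ± 0.05 (SE; adjusted p = 0.114, edgeR). The groups overlapped between 43.3 and 47.3 CPM. Of the 9 river water libraries, 8 lay above the laboratory mean and 9 above the laboratory median.

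K12895 had 14.4 to 18.9 CPM in laboratory water, with a median of 16.5, and 14.99 to 23.9 CPM in river water, with a median of 19.1. The log2 change was 0.19 ± 0.08 (SE; adjusted p = 0.132, edgeR). Again river water replicate 1 was the highest, and 8 of 9 river water libraries lay above the laboratory mean. Without river water replicate 1 the log2 change was 0.15 ± 0.06 (SE; adjusted p = 0.145, edgeR). Of the alternatives run, K12895 passed in 1, the fit without river water replicates 1 and 6, at a log2 change of 0.18 (adjusted p = 0.0490, edgeR). That fit called 3 members and 11.5% of all features.

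K12816 had 28.5 to 32.9 CPM in laboratory water, with a median of 30.8, and 27.1 to 30.4 CPM in river water, with a median of 29.3. The log2 change was -0.09 ± 0.03 (SE; adjusted p = 0.132, edgeR). Its lowest library was river water replicate 1, without which the log2 change was -0.07 ± 0.03 (SE; adjusted p = 0.178, edgeR), and 9 of 9 river water libraries lay below the laboratory mean. K12829 and K12845, picked out after their values were seen, shared with K12847 and K12816 a level below the laboratory mean in all river water libraries. K12823 was the one member above that mean in all 9. K12823, K12847 and K12816 were named for their p-values, which go with levels on 1 side. The share of all features that lay on 1 side in this way was not counted. Whether the pattern is particular to the members is therefore not known, and nothing is read from it. The 2 groups of 9 libraries overlapped for all 86 members (0 without overlap), where 0.888% of all features had groups that did not overlap.

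**Figure D2:**
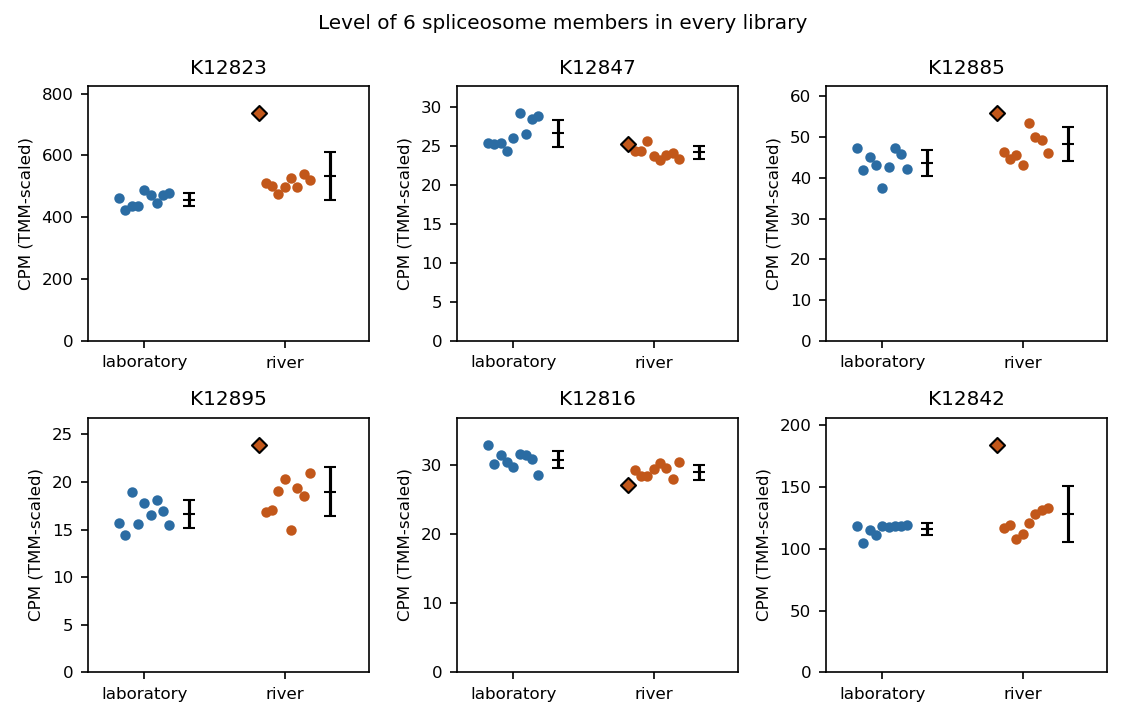
Level in CPM (linear axes from 0) of 6 members in each of the 9 laboratory water libraries (blue) and 9 river water libraries (orange), in order of replicate number, with bars for the mean and SD. The diamond is river water replicate 1, at 736 CPM for K12823 and 184 CPM for K12842, the highest value in both panels.

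As a group, the members held a small part of the RNA counted. Their share of all counts ran from 0.576% to 0.631% in laboratory water, with a median of 0.609%, and from 0.591% to 0.670% in river water, with a median of 0.615%. The group means were 0.607% ± 0.0177 and 0.623% ± 0.0224 (SD, n = 9 per group), and their difference of 0.0165 percentage points was less than the pooled SD of 0.0202. That SD is the spread of single libraries, which is wider than the error of a difference between means, and the difference was not tested. The highest share belonged to river water replicate 6, and without it the difference was 0.0106 percentage points. It was 0.0178 points without river water replicate 1, and 0.0056 points without the 5 most abundant members. After scaling, the summed level was 6104 ± 131 CPM in the laboratory group and 6199 ± 342 CPM in the river group (SD, n = 9 per group). After scaling, the pool of river water replicate 1 held 7023 CPM, and the other 8 averaged 6096 ± 156 CPM (SD, n = 8). Its TMM scale factor was 0.872, where the other libraries had 0.955 to 1.087. Before scaling its share of all counts was 0.612%, below the mean of 0.625% over the other 8 river libraries. The higher summed level of this pool thus appears only after scaling.

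The counts were spread unevenly over the members. K12823 alone held 8.04% of their summed CPM, the 5 most counted members 28.3% and the 10 most counted 42.9%. Gene lengths were not used here, so this order is one of counts and not of RNA molecules. By mean level, all tested features were ranked and cut into 3 equal bins. The top bin held 54 members, the next 27 and the bottom bin 5.

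K12828 and K12887 followed K12823 in abundance. K12828 averaged 343 ± 14.7 CPM in the laboratory group and 360 ± 55.3 CPM in the river group (SD, n = 9 per group), or 343 ± 16.5 CPM over the river libraries other than replicate 1 (SD, n = 8). K12887 averaged 307 ± 18.8 and 326 ± 37.6 CPM in the same order (SD, n = 9 per group), or 315 ± 19.96 CPM without that library (SD, n = 8). The test was passed by neither (adjusted p = 0.539 and 0.391, edgeR). The least counted members were K12900, at 9.88 ± 0.998 CPM in the laboratory group and 9.63 ± 0.846 CPM in the river group, and K12871, at 9.91 ± 0.803 and 9.19 ± 0.816 CPM (SD, n = 9 per group).

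The signs were also counted by abundance. Among the 29 most counted members 19 were higher in river water and 10 lower, with a median log2 change of 0.018. Among the 28 least counted members 8 were higher and 20 lower, with a median of -0.041. The 29 between them had 10 higher and 19 lower. With river water replicate 1 left out the most counted had 13 higher and 16 lower, with a median of -0.0061, the middle class again 10 and 19, and the least counted 6 and 22. Over all 18 libraries, all but K12823 among these are signs of changes that did not pass the test. Without river water replicate 1 this holds for all but K12823 and K12847. The difference between these classes of abundance was not tested. Signs over all features were not counted by abundance, so whether the pattern is particular to the members is not known.

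Levels of the members varied little between libraries of the same water. In laboratory water the SD of log2 CPM had a median of 0.074 among the members and 0.115 over all tested features. Features in the same range of mean level had a median of 0.0996. They were counted less deeply, with a median level of 5.01 log2 CPM against 5.53 among the members. In river water the median SD was 0.0999 among the members and 0.168 over all features, and without replicate 1 it was 0.074 and 0.120. The SD in river water was above that in laboratory water for 61 members, 70.9% of them, where 76.9% of all features behaved so. Without replicate 1 this held for 47 members, or 54.7%, and for 54.6% of all features.

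The spread was set beside that expected from counting error. At the mean laboratory count of each member, counting error alone would give a log2 SD with a median of 0.050. For features in the same range of mean level that median was 0.059. For 14 members, or 16.3%, the observed SD in laboratory water was below the value that counting gives, against 14.5% of all features and 9.69% of those in the same range of mean level. The smallest SD of the members, 0.012 for K12811, was also the smallest among the 9008 tested features, and counting alone would give 0.040. It is the extreme of many SDs, each from 9 libraries, so nothing is read from it. In river water the SD of K12811 was 0.046. K12811 had 72.1 to 73.8 CPM in laboratory water and 68.2 to 74.2 CPM in river water. K12893 followed with an SD of 0.015 in laboratory water, where counting would give 0.019.

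K12893 was named for its small SD in laboratory water, so a wider spread in river water follows in part from that choice. Nothing is read from that difference in spread. Its levels ran from 296 to 307 CPM in laboratory water and from 270 to 345 CPM in river water, the highest in replicate 1. K12893 averaged 301 ± 3.18 and 291 ± 25.04 CPM in the 2 waters (SD, n = 9 per group; adjusted p = 0.513, edgeR). With that library left out the log2 change was -0.08 ± 0.03 (SE; adjusted p = 0.126, edgeR). The members with the largest SD in laboratory water were K12900 at 0.148 and K12834 at 0.145, and K12900 is among the least counted. K12834 had 17.9 to 24.2 CPM in laboratory water and 15.8 to 22.3 CPM in river water.

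Within each water, many members were high or low in the same library. Each library was set against the mean of the others of its group, and the number of members above that mean was counted. It ran from 22 of 86 in laboratory water replicate 5 to 69 in replicate 6, and from 19 in river water replicate 3 to 63 in replicate 8. For the other river water libraries that mean includes replicate 1, which moves these counts, and counts with it left out were not made. Over all tested features the share above the mean stayed between 48.1% and 53.8%. Scaling brings the typical feature of each library to a common level, so that share stays near an even split. It is therefore no background for the members, and how far other sets of 86 features move together was not tested. The median shift of the members was nonetheless small, from -0.061 in river water replicate 5 to 0.082 in river water replicate 1 on the log2 scale. Outside river water replicate 1, at most 3 members in any library were more than 1.2-fold from the mean of the others.

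**Figure D3:**
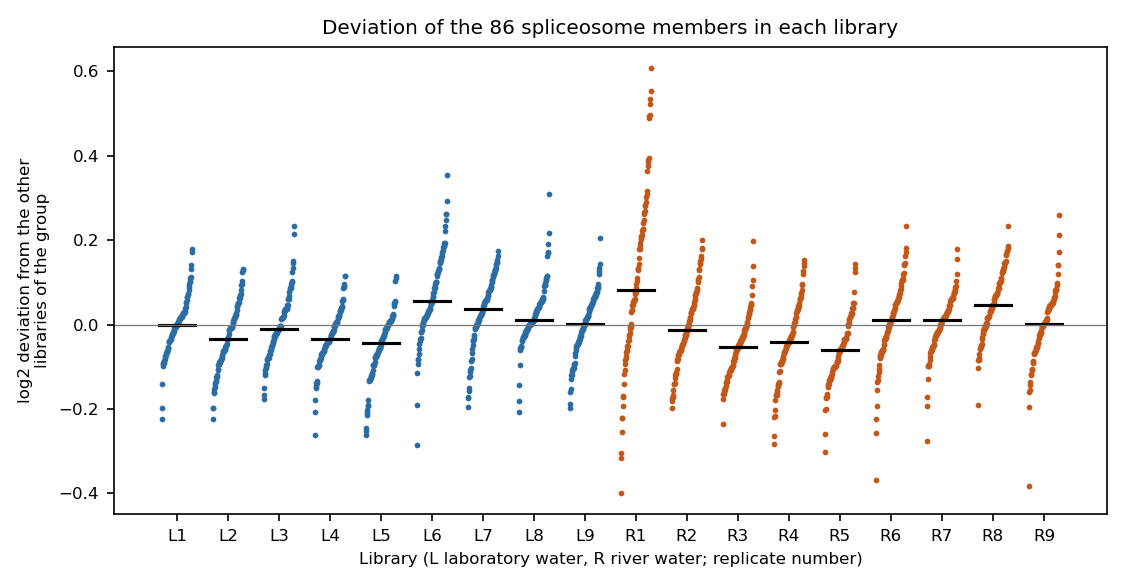
Deviation of each of the 86 members (points, sorted within a library) from the mean of the other libraries of the same water, in log2 units, with the median as a black bar. River water replicate 1 (R1) has the widest spread, from -0.40 to 0.61, and the medians of the 18 libraries lie between -0.061 and 0.082.

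The members as well set river water replicate 1 apart from its group. In this library 20 members were more than 1.2-fold above the mean of the 8 remaining river libraries and 3 were more than 1.2-fold below it, which made 26.7% of the members where the share of all features was 56.0%. It held the highest of the 18 values for 34 members, or 39.5%, and the lowest for 11, or 12.8%. Over all features these shares were 30.5% and 31.3%. The median log2 deviation was 0.082 among the members and -0.0013 over all features. These are values after scaling, which holds the median over all features close to that of the other libraries. This library had the lowest scale factor, 0.872. Before scaling, the members' share of its counts was 0.612%, below the mean of 0.625% over the 8 remaining river libraries.

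The member farthest from its group in river water replicate 1 was K12842. It had 184 CPM there, against 108 to 133 CPM in the other 8 river water libraries and 105 to 119 CPM in laboratory water, a log2 deviation of 0.61. Over all libraries its log2 change was 0.15 ± 0.08 (SE; adjusted p = 0.247, edgeR). Leaving out this library gave 0.07 ± 0.04 (SE; adjusted p = 0.309, edgeR), with a river mean of 121 ± 9.18 CPM (SD, n = 8) beside 116 ± 4.83 CPM in the laboratory group (SD, n = 9). K12828 deviated by 0.55, with 502 CPM in river water replicate 1, and K12823 by 0.53. Of the 29 most counted members 11 were more than 1.2-fold above the group in this library, of the middle 29 only 1, and of the 28 least counted 8. Such counts by level were not made over all features, so nothing is read from them.

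**Figure D4:**
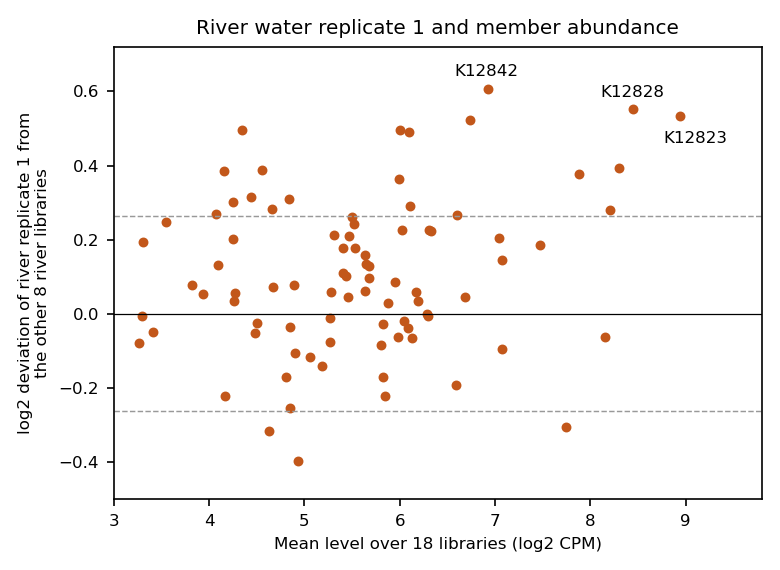
Log2 deviation of the 86 members in river water replicate 1 from the mean of the 8 remaining river libraries, against the mean level over 18 libraries in log2 CPM. Dashed lines mark 1.2-fold. More members lie above the upper line (20) than below the lower one (3), with K12842, K12828 and K12823 the highest.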

How the data were processed

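RNA was sequenced from 18 pools of 5 whole larvae. The authors deposited raw counts, whole numbers for each feature and library. Of tools, the submitters' processing notes name edgeR alone, with no version, and how reads were aligned and counted is not given in the sources used here. Groups came from the sample titles. Over the 9025 rows of the sample files, values did not differ from the series table (0 of 18 columns). The table's 620 further rows, with at most 0.0262% of a library's counts, were used in 1 alternative only, and 0 columns of per-sample values went unused.

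Counts were fitted in R 4.3.3 with edgeR 4.0.16. The default low-count filter (minimum count 10, minimum total 15) left 9008 features and removed 17. Scaling was by TMM, the trimmed mean of M values. The quasi-likelihood test with robust estimation had water as its one term, and p-values were adjusted over all 9008 features. The standard error is the log2 change divided by the root of F, and a prior count of 2 was used for log2 CPM. The fit was tested on simulated data in which no library stood apart, so that test does not cover river water replicate 1. No 2 libraries of a group agreed within sampling noise (the lowest chi-square per degree of freedom was 4.21). Alternatives used other scalings, filters and blocks, libraries left out, DESeq2 1.42.0 and limma 3.58.1.

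The members and lists were chosen with earlier results of these data known. Members were named by rule, apart from K12829, K12845 and K12865, which were named after their values were seen. The rule took at most 2 that rose and 2 that fell, and the 2 nearest to passing in each direction. It also took the most and least counted and those of largest and smallest SD in laboratory water. The last was the one farthest out in river water replicate 1. A list of splicing genes by symbol could not be matched to identifiers and was not used.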

Additional observations from a re-analysis of the deposited data

Results flagged for a closer look

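The gap between the most extreme library and its nearest neighbour was examined in 30 sets of 9 values, the share of counts, the summed level and 13 named members in each water. It singled out 5 sets, where about 1 in 20 would be by chance, and river water replicate 1 was the library in all of them, so the 5 are not separate observations. After scaling, the summed level of the members was 7023 CPM there, and the next highest river water library had 6360 CPM. K12823 had 736 CPM, with 541 CPM next, and K12828 had 502 CPM, with 365 CPM next. K12887 had 413 CPM, with 350 CPM next, and K12842, which was named for its distance in this library, had 184 CPM, with 133 CPM next.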

How the results depend on the processing

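The median log2 change of the members moved by less than 1 SD between single libraries under all settings run. That SD, 0.034, is wider than the error of a group mean and larger than the median change itself, so a change of sign also falls within it. The median ran from -0.034 (file number 2 alone, 21 members higher and 65 lower) to 0.011 (file number 1 alone, 46 higher and 40 lower). With 1 library left out it was -0.023 to 0.0027. The difference in share of counts was 0.0056 to 0.011 percentage points in the other settings and 0.011 to 0.020 with 1 library left out. The count of 1 member called became 0 with upper-quartile scaling, the replicate block, the file number as a block, counts summed by file number, and each file number alone. It became 2 (1 higher, 1 lower) with DESeq2, 4 (1 higher; K12847, K12865 and K12893 lower) with limma-voom and quality weights, and 3 (2 higher, 1 lower) without river water replicates 1 and 6. With 1 library left out it was 0 to 2, with 0 to 1 higher and 0 to 1 lower. Over all features the count of 565 became 899 with DESeq2, 1225 with quality weights, 356 with the replicate block, 311 with summed counts, 1041 without river water replicates 1 and 6, and 0, 5 and 276 within file numbers 1, 2 and 3, where only 3 libraries a group remain. With 1 library left out it was 377 to 979, the highest without river water replicate 1. Within file numbers 1, 2 and 3, 2, 2 and 7 members had an unadjusted p under 0.05 (edgeR). The share of all features under that value was not counted in these fits, so nothing is read from these counts. The fit on all 9645 rows of the series table called 534 features, or 5.54%, with K12823 again the 1 member. Apart from the fewer libraries in some fits, the cause of these differences was not tested. Across the waters, pairs of libraries with the same replicate number had correlated deviations, above 0.1, in 4 of 9 cases (-0.43 to 0.37), and 2 of 18 libraries matched best with their own number, so the numbers were not taken to pair the samples. None of K12823, K12847, K12885, K12895 and K12816 changed direction in any setting. They were named for small p-values, and most settings share most of their libraries, so a constant sign gives the changes no support. The adjusted p of K12823 was 0.0576 with upper-quartile scaling, 0.0582 with the file number as a block and 0.0803 with summed counts (edgeR), and 0.00564 to 0.0809 with 1 library left out. Depth gives a log2 SD from counting of about 0.108 for the least counted members, so smaller shifts in single libraries were not detectable there.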
